A study of Mus musculus with 6 samples.

Results

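The LY6 family genes described here are Ly6a, Ly6c1, Ly6c2, Ly6d, Ly6e, Ly6i and Ly6k, the 7 rows of the deposited expression table that carry these names, out of 49585 genes. Ly6c1 was 7.92-fold lower in the libraries labelled Bach2-cKO, falling from 65.2 ± 18.3 to 8.22 ± 1.80 FPKM (SD, n = 3 each). Ly6a, which encodes the surface antigen Sca-1, rose about 2.03-fold, from 406.3 ± 71.9 to 825.4 ± 69.0 FPKM. Ly6c2, whose coding sequence is nearly that of Ly6c1, was higher in all 3 Bach2-cKO libraries but missed the threshold. FPKM gives the fragments counted per kilobase of a gene after scaling each library by its total.

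Spleens of C57BL/6 mice, 7 weeks old, gave the regulatory T cells (Tregs), the CD4 lineage defined by Foxp3 that holds immune responses in check, from which poly(A) RNA was sequenced. The sort kept B220-negative cells positive for CD4 and YFP, with CD25 added in the design text, and the cells were stimulated for 24 h with plate-bound antibodies to CD3 and CD28. There were 3 libraries of WT mice and 3 labelled Bach2-cKO, by name a conditional knockout of Bach2, a transcriptional repressor. The labels do not say which Cre or which cells deleted the gene, what drives YFP, or whether the libraries came from separate mice, so p-values measure only how these samples vary, and that variation may be technical. All 6 libraries share the sort and the stimulation.

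LY6 proteins are small, cysteine-rich proteins with the fold of the uPAR and snake toxin family, and most are held on the cell surface by a glycosylphosphatidylinositol (GPI) anchor. Several serve as flow cytometry markers: Sca-1 of stem cells and activated lymphocytes, Ly6C of monocytes and some memory T cells, and Ly6D of B-lineage cells. Interferons raise the transcription of several of them.

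The libraries held between 27697735 and 43884431 reads, so 3 reads in a gene of 1 kb correspond to 0.0684 to 0.108 FPKM. The Treg markers Foxp3 and Il2ra were abundant in every library. Their marker list of 8 genes summed to 1897 to 2341 FPKM in WT and 2037 to 2405 in Bach2-cKO libraries. Within it Il2ra, which encodes CD25, rose from 256.3 ± 38.7 to 482.0 ± 22.1 FPKM (adjusted p = 0.00186 by limma). Izumo1r was lower by the test, at 279.0 ± 50.2 against 157.6 ± 17.0 FPKM, and 6 were not called. Of those 6, Ctla4 was higher and Cd4 lower without overlap of the groups. Bach2 itself stood at 107.6 ± 7.11 FPKM in WT and 104.7 ± 16.0 in Bach2-cKO libraries, so its gene-level value does not check the labels. The 16 B cell markers, led by Ighm and Cd79b, summed to 2847 to 3817 FPKM in WT and 4259 to 5421 in Bach2-cKO libraries, and 7 of them were higher by the test. The 7 CD8 T cell markers summed to 77.9 to 92.4 against 136 to 216 FPKM. In such bulk samples, more or fewer cells of a type cannot be told apart from more or less RNA per cell.

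The 7 genes lie within 349.9 kb of chromosome 15, between positions 74762056 and 75111970 of GRCm38. The coding sequences are 384 to 465 bases long, and 396 in both Ly6c1 and Ly6c2. Ly6a, Ly6c1, Ly6c2 and Ly6i are close copies, with 81.5% to 97.7% of aligned bases identical over their 6 pairs. The 15 pairs that include Ly6d, Ly6e or Ly6k reached 46.5% to 52.6%. Ly6c1 and Ly6c2, the closest pair, had differences of opposite sign, and their coding sequences are shown for that reason, from GENCODE M21 as their first 260 bases, with 7 of the 9 bases that differ in capitals.
Ly6c1: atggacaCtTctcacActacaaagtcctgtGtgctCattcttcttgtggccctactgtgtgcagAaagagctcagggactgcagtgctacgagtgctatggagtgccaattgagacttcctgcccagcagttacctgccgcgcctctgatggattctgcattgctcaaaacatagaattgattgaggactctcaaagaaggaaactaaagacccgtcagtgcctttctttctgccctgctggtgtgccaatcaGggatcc
Ly6c2: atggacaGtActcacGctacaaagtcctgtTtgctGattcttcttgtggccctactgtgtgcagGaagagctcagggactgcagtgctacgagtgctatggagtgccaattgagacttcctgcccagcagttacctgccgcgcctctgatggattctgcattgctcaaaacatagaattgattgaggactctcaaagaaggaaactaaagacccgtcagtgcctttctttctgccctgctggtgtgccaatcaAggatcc

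Both run on the minus strand, Ly6c1 over chr15:75044018-75048830 and Ly6c2 over chr15:75108158-75111970, with 59.3 kb between them. Counted from the A of the start codon, with the base of Ly6c1 first, the differences are C8G, T10A, A16G, G31T, C36G, A65G, G254A, T327C and G376A. Between them lies an identical run of up to 188 bases. Over all annotated transcripts, 32.8% of the 50-base stretches of Ly6c1 occur in another gene, 21.5% in Ly6c2 and 11.1% in Ly6a. The share is 14.5% for Ly6c2, 19% for Ly6a, 4.76% for Ly6i and 0 for Ly6d and Ly6e. With stretches of 100 bases it is 10.1% for Ly6c1, 5.81% for Ly6c2 and 1.45% for Ly6a. Read length and the handling of reads that match several genes are not given in the sources used, so the values of Ly6a, Ly6c1, Ly6c2 and Ly6i are uncertain by what these stretches could carry from one gene to another. Of Ly6k, 32.7% of the 50-base stretches lie in the overlapping antisense gene Gm17189, itself listed at 0 in every library, and strand use in the counting is not given either.

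Of the 7, 1 was higher and 1 lower by limma at an adjusted p under 0.05, and 5 were not called. Over all 13766 genes tested, 15.3% were called, 7.02% higher and 8.31% lower. In 4 of the 7 the WT and Bach2-cKO values did not overlap, against 35.6% of all genes tested. These 4 are Ly6a, Ly6c1, Ly6c2 and Ly6i, the close copies, a grouping seen after their values were known. All 7 passed the filter of at least 1 FPKM in at least 3 libraries, Ly6i through 1 WT and 3 Bach2-cKO libraries and Ly6k through 1 WT and 2 Bach2-cKO libraries. The 3 Bach2-cKO libraries, where Ly6i is high, were enough for it to pass, so the filter favoured its place among the 4. Fold changes are differences of log2(FPKM + 1) with their standard errors, and understate changes of low genes.

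**Figure D1:**
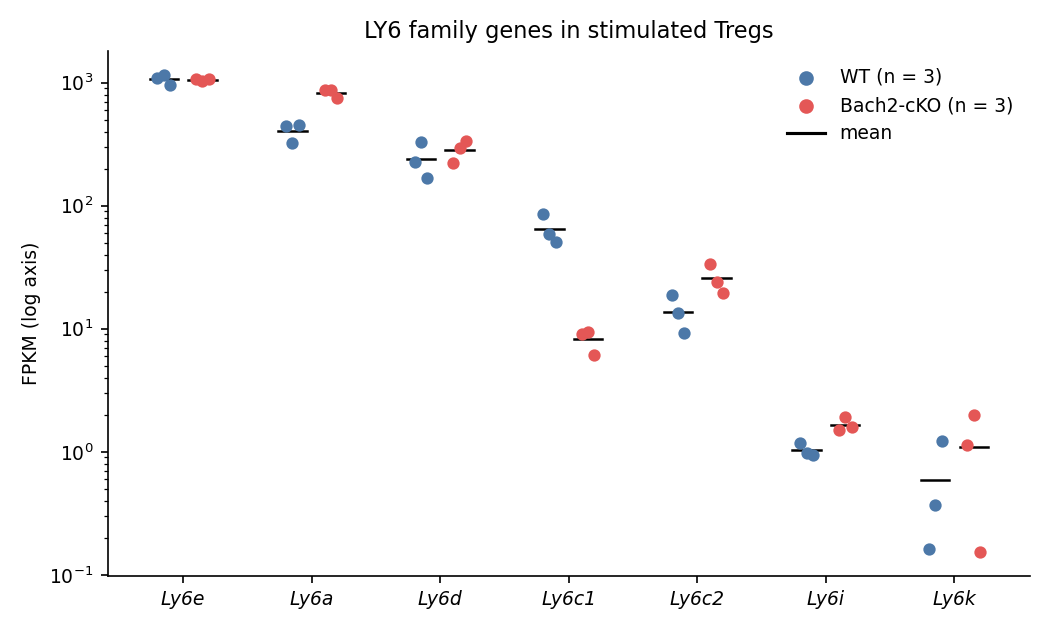
FPKM of the 7 LY6 genes on a log axis, 1 point per library, with WT and Bach2-cKO side by side and black bars for the means (n = 3 each). Ly6a is higher and Ly6c1 lower in every Bach2-cKO library, while Ly6d, Ly6e and Ly6k overlap between the groups.

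Ly6e (chr15:74955051-74959905, plus strand), the most abundant of the 7, encodes a broadly expressed surface protein that acts in the mouse as a receptor for syncytin-A in the placenta. It measured 1087, 1161 and 957.6 FPKM in WT libraries 1 to 3 and 1061, 1022 and 1077 in the Bach2-cKO libraries. The groups overlapped, and all 3 Bach2-cKO values lay inside the WT range. The fitted difference was -0.02 ± 0.09 (SE) in log2 units with a 95% interval of -0.22 to 0.19, adjusted p = 0.922 by limma.

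Ly6a (chr15:74994877-74998031, minus strand) encodes Sca-1, which activated T cells carry. Its FPKM values were 440.7, 323.7 and 454.6 in WT and 867.6, 862.9 and 745.8 in Bach2-cKO libraries. Every Bach2-cKO library stood well above every WT library. The log2 fold change was 1.03 ± 0.14 (SE), 95% interval 0.72 to 1.35, adjusted p = 0.00322 by limma. Between 7841 and 21631 reads stood behind each value. Plasma cells also carry Sca-1, and the 6 plasma cell markers, led by Mzb1 and Jchain, summed to 111.6 to 135.9 FPKM in WT and 171.8 to 261.3 in Bach2-cKO libraries, with 3 of 5 tested higher. Their part in the level of Ly6a was not tested. With a B cell marker score as covariate, where only 42 genes are higher and 54 lower in the whole table, Ly6a lost its call, with a log2 fold change of 1.34 and an adjusted p of 0.0502 by limma.

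Ly6d (chr15:74762056-74763620, minus strand), known in mice as a marker of B-lineage commitment, measured 225.4, 330.4 and 168.4 FPKM in WT and 220.3, 291.7 and 338.0 in Bach2-cKO libraries. The groups overlapped across most of their ranges. The log2 difference was 0.26 ± 0.25 (SE), 95% interval -0.31 to 0.84, adjusted p = 0.519 by limma. It was 0.03 without WT replicate 3 and 0.52 without WT replicate 2, and was called in neither. The genes with the most similar pattern over the 6 libraries, among those of at least 5 FPKM, were Mylip (Pearson r 0.991), Blvrb (0.983) and Dok3 (0.982), and these correlations carry no test. Of the 16 B cell markers, 7 were higher by the test and 9 were not called. Their score, centred over the libraries, was -0.37 to 0.02 in WT and 0.08 to 0.43 in Bach2-cKO libraries. With that score as covariate the difference of Ly6d was -0.41, also not called.

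Ly6c1, one of the genes whose product carries the Ly6C epitope, measured 85.82, 58.58 and 51.07 FPKM in WT and 9.082, 9.432 and 6.155 in Bach2-cKO libraries. Every Bach2-cKO library lay far below the lowest WT library. The log2 fold change was -2.83 ± 0.21 (SE), 95% interval -3.32 to -2.33, adjusted p = 0.000444 by limma. It was the 7th largest fall among the genes tested. The counts fell from 877 to 2335 reads in WT to 106 to 187 in Bach2-cKO libraries. Parp3 (r 0.998), Ager (0.997) and Zbtb14 (0.997) followed its pattern most closely, each lower in Bach2-cKO libraries by the test. They were picked by that pattern over the same libraries, so their direction was set by the choice. Endothelial cells carry Ly6C as well, and of their 7 markers, stromal ones included, Pecam1, which T cells also express, fell from 68.5 ± 6.19 to 40.9 ± 2.47 FPKM. Cdh5 stayed at or under 0.374 FPKM, Kdr at or under 0.0823, and 5 of the 7 were under 1 FPKM in every library. The whole list summed to 63.4 to 73.5 FPKM in WT and 40.5 to 44.8 in Bach2-cKO libraries.

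Ly6c2 measured 18.66, 13.36 and 9.257 FPKM in WT and 33.47, 23.98 and 19.63 in Bach2-cKO libraries. The lowest Bach2-cKO value lay just above the highest WT value. The log2 difference was 0.87 ± 0.26 (SE), 95% interval 0.27 to 1.48, and the adjusted p of 0.0617 by limma missed the threshold. In 4 of 12 alternatives it passed. The adjusted p by limma was 0.042 with limma-voom on reads and 0.00681 with the replicate block, whose pairing the labels do not give. It was 0.0449 without WT replicate 1 and 0.0413 without Bach2-cKO replicate 3. In the 8 that did not pass, it was 0.0591 with median-ratio scaling, 0.0642 with a pseudocount of 0.1 and 0.182 with no filter. With the B cell score it was 0.326, and without any of the remaining libraries 0.129 to 0.163.

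Ly6c2 is also carried by monocytes and memory CD8 T cells, so their markers are given beside it. The CD8 T cell markers Cd8a and Cd8b1 rose, Cd8a from 19.9 ± 1.62 to 36.4 ± 10.7 FPKM, and Gzmk, a granzyme of CD8 T cells, followed Ly6c2 most closely over the 6 libraries (r 0.996), although it was not called itself (adjusted p = 0.0688 by limma). Next were Trak1 and Ccdc47 (r 0.990 each), on no list here, with log2 differences of 0.07 and 0.05 that were not called. Of the 9 monocyte and macrophage marker names, which match 10 rows, 1 of 3 tested rows was higher, Ccr2, which T cells also carry, and 6 rows were under 1 FPKM in every library. The list summed to 51.8 to 78.6 FPKM in WT and 103.7 to 123.6 in Bach2-cKO libraries. Csf1r stayed at or under 0.302 FPKM and Cd14 at or under 0.279. Adgre1, which was not tested, was higher without overlap, at 0.458, 0.589 and 0.351 FPKM in WT and 0.963, 1.286 and 1.085 in Bach2-cKO libraries. The neutrophil marker Ly6g, another gene of the family, stayed at or under 0.734 FPKM, while S100a9 and S100a8 were high in Bach2-cKO replicates 2 and 3 alone, at 26.4 and 28.0 FPKM for S100a9 against 2.73 in replicate 1. Ly6c2 was highest in replicate 1. The share of Ly6c2 that such cells could carry was not tested.

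**Figure D2:**
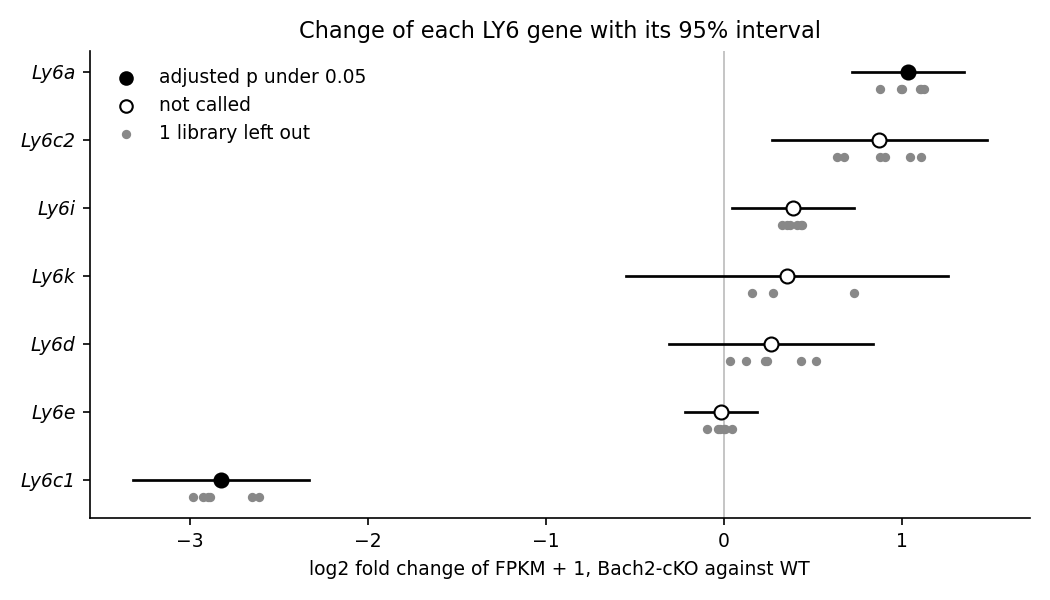
Log2 fold change of FPKM + 1 for each LY6 gene, Bach2-cKO against WT, with its 95% interval (black lines), filled circles for an adjusted p under 0.05 and grey points for fits with 1 library left out. Ly6a lies at 1.03 and Ly6c1 at -2.83, and the interval of Ly6e spans -0.22 to 0.19.

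Ly6i (chr15:74979534-74983430, minus strand), one of the close copies of Ly6a, stood near the filter at 1.18, 0.984 and 0.935 FPKM in WT and 1.504, 1.902 and 1.581 in Bach2-cKO libraries. The Bach2-cKO values were all higher, from 23 to 54 reads per library, but the filter favoured a gene that is high in that group. The log2 difference was 0.39 ± 0.15 (SE), 95% interval 0.04 to 0.73, adjusted p = 0.122 by limma.

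Ly6k (chr15:74796874-74799986, minus strand), known from testis and sperm, measured 0.162, 0.369 and 1.23 FPKM in WT and 1.131, 2.005 and 0.154 in Bach2-cKO libraries. With 3 to 45 reads per library, the groups overlapped, and the whole WT range lay inside the wider Bach2-cKO range. The log2 difference was 0.35 ± 0.39 (SE), 95% interval -0.55 to 1.26, adjusted p = 0.586 by limma. Leaving out WT replicate 1 gave 0.16, leaving out Bach2-cKO replicate 3 gave 0.73, and limma-voom on reads gave 0.94, with no call in any.

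For the remaining members the closest patterns over the 6 libraries, by Pearson r among genes of at least 5 FPKM and with no test, were as follows. Ly6a was followed by Gnptab, Hcfc1 and Smarcd3 (r 0.996 each), all higher in Bach2-cKO libraries. Ly6i was followed by Dennd4a (0.988), Serpina3g (0.981) and Ptk2b (0.981), all higher as well. For genes picked by likeness to Ly6a or Ly6i over the same libraries, that direction was set by the choice. Ly6e was followed by Kansl2 (0.984), Zbtb12 (0.982) and Sppl3 (0.978), and Ly6k by Siva1 (0.996), Atp5g1 (0.995) and Tarbp2 (0.991), none of them called.

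The order of levels, per length in FPKM, was Ly6e, Ly6a, Ly6d, Ly6c1, Ly6c2, Ly6i and Ly6k in WT libraries. In Bach2-cKO libraries Ly6c2 and Ly6c1 changed places and the rest kept theirs. Neighbours whose ranges met were Ly6a and Ly6d in WT libraries, and Ly6i and Ly6k in both groups. The 7 together summed to 1797 ± 134 FPKM in WT and 2198 ± 13.5 in Bach2-cKO libraries.

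Since reads could have been shared between the near copies, their sum was taken. In FPKM the sum of Ly6c1 and Ly6c2 was 104.5, 71.94 and 60.33 FPKM in WT and 42.56, 33.41 and 25.79 in Bach2-cKO libraries. Every Bach2-cKO sum was below every WT sum, with a log2 difference of -1.19 (exact two-sided permutation p = 0.1, the smallest that 3 against 3 allows). When the sum replaced both genes in the fit, its SE was 0.23 and its adjusted p 0.0137 by limma. A sum of FPKM still weights the genes by length, taken as 620 bases for Ly6c1 and 1170 for Ly6c2. In CPM, counts of reads scaled to the library total without length, an alternative added after the values were seen, the sums were 75.0, 52.0 and 42.5 in WT and 44.8, 33.9 and 26.8 in Bach2-cKO libraries. These overlapped, with a log2 difference of -0.66 (exact permutation p = 0.2), so the gap between the groups in the sum depends on the gene lengths. Ly6c2 made up 17.9%, 18.6% and 15.3% of the sum in WT and 78.7%, 71.8% and 76.1% in Bach2-cKO libraries. The means were 17.3% ± 1.70 and 75.5% ± 3.49 (SD, n = 3 each), a difference of 58.3 percentage points (exact permutation p = 0.1). By reads, the Ly6c2 shares were 28.2% ± 2.42 and 85.3% ± 2.37.

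**Figure D3:**
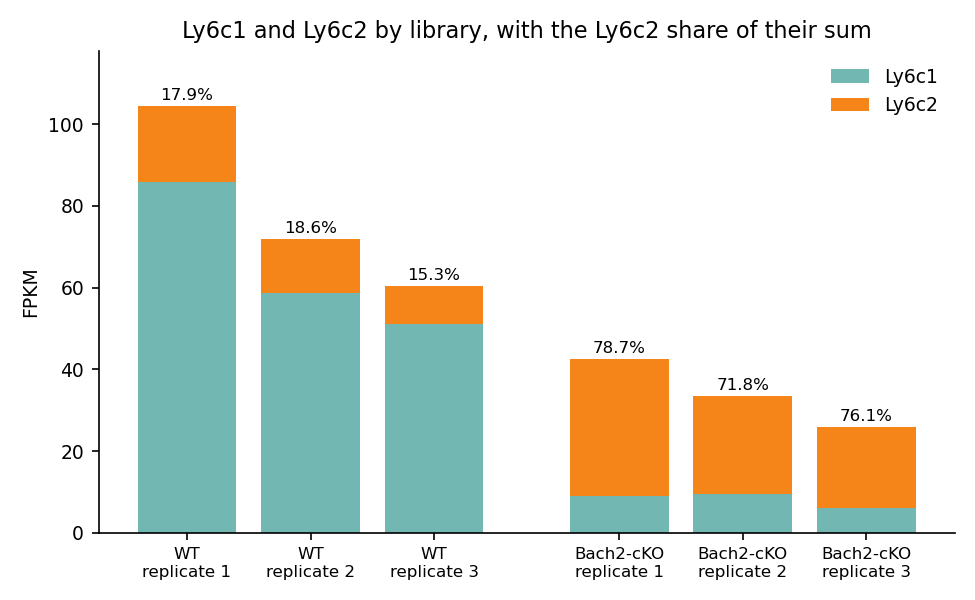
Stacked FPKM of Ly6c1 and Ly6c2 in each of the 6 libraries, from 0, with the Ly6c2 share of the sum above each bar. Ly6c2 holds 15.3% to 18.6% in WT and 71.8% to 78.7% in Bach2-cKO libraries.

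For every pair of the 7, the log2 ratio of FPKM + 1 was compared between groups, 21 pairs in all. Of these, 10 reached the smallest exact permutation p of 0.1, with a smallest Benjamini-Hochberg value of 0.21, so none can pass. The ratio of Ly6c1 to Ly6c2 went from 2.18 ± 0.15 to -1.52 ± 0.26 in log2 units (SD, n = 3). Ly6a to Ly6e differed by 1.05 and Ly6a to Ly6c1 by 3.86. Ly6a to Ly6c2 differed by 0.16 with an exact permutation p of 0.8. Within groups, Ly6c1 and Ly6c2 went together over the libraries (r 0.871 of 6 deviations from group means), although over all 6 the correlation was -0.662.

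Of the 7 genes, 2 matched the RefSeq promoter table, Ly6c1 and Ly6c2, whose differences had opposite signs, and both promoters are shown. Ly6a, Ly6d, Ly6e, Ly6i and Ly6k are named only. Each is the 250 bases before the RefSeq start on the minus strand of GRCm38.p6, chr15:75048838-75049087 for Ly6c1 and chr15:75111972-75112221 for Ly6c2. Capitals mark bases that differ or have no partner in the alignment.
Ly6c1 promoter: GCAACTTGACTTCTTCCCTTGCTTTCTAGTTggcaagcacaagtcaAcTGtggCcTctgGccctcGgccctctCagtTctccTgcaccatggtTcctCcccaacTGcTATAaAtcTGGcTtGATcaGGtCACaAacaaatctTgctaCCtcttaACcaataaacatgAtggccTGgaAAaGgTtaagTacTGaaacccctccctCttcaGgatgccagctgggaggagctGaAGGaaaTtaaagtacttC
Ly6c2 promoter: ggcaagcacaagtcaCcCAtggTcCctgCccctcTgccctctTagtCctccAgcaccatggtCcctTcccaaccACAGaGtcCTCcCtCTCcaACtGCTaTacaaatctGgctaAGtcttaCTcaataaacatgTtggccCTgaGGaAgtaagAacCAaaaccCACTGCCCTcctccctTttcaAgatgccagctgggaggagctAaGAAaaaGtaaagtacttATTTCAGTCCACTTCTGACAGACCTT

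Of 228 aligned columns, 164 were identical (71.9%), 52 differed and 12 held a gap. On both strands, neither window held TGANTCA, the core shared by AP-1 and MAF recognition sites, found in 6.75% of 32851 promoter windows of that length. Neither held TTCNNNGAA, the gamma-activated site of interferon signalling, found in 7.02%. This says only that these letters are not in these windows.

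Beside the members, 15 other genes of the table lie within their span, and 2 of them were tested. Within 1 Mb of the span, 77 other genes were in the table, 23 were tested, 0 were higher and 1 was lower by limma, against 7.02% and 8.31% of all genes. At an unadjusted p under 0.05 and by limma-voom the counts were again 0 higher and 1 lower. Of all 13766 genes tested, limma-voom called 1170 higher and 1348 lower. An unadjusted p of 0.032 by limma ranked 3593 among them, so at least 3593, both directions together, lay under 0.05. The exact share at that threshold is not given here. The lower neighbour, Zfp707, had a log2 difference of -0.39 (adjusted p = 0.0282 by limma). Eef1d, Zfp623 and Top1mt followed with differences of -0.15, -0.30 and -0.25 that missed the threshold. The median over the 23 was -0.12 and that over all genes -0.02.

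**Figure D4:**
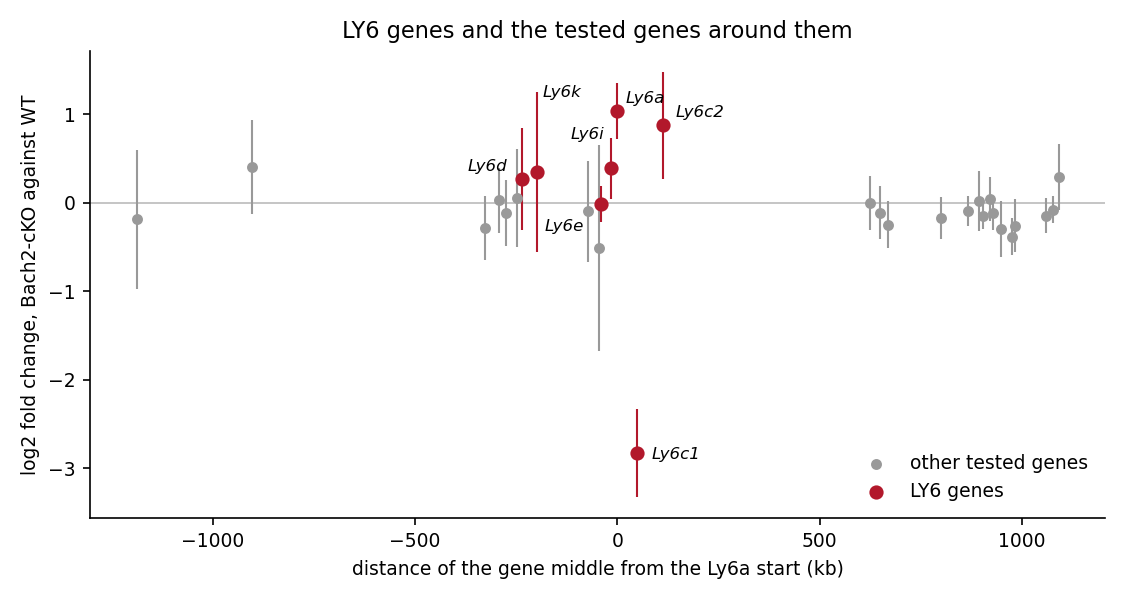
Log2 fold change with 95% interval of the 7 LY6 genes (red) and of the 23 tested genes within 1 Mb (grey), against the distance of each gene's middle from the Ly6a start in kb. Ly6a and Ly6c2 lie above 0, Ly6c1 at -2.83, and the grey genes between -0.51 and 0.40.

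Of 38 other genes of the LY6 and uPAR family, 32 were in the table and 4 were tested. Of these, 0 were higher and 1 lower by limma, against 7.02% and 8.31% of all genes. The counts were the same at an unadjusted p under 0.05 and by limma-voom. The lower gene was Lypd6b, which fell from 1.44 ± 0.50 to 0.325 ± 0.226 FPKM (log2 -0.88, adjusted p = 0.033 by limma). It passed the filter on low values through the 3 WT libraries alone, the group where it is high, so the filter favoured this call. Ly6g5b, Plaur, which encodes the urokinase receptor, and Lynx1 gave differences of 0.43, -0.15 and 0.05, none called. In all, 28 stayed under 1 FPKM in every library and 11 were at 0. Of 29 tested genes that build or attach the GPI anchor, 0 were higher and 1 lower, Pigp (log2 -0.43, adjusted p = 0.0329 by limma). At an unadjusted p under 0.05, 3 were higher and 4 lower, and by limma-voom 2 and 1. Of the 3 higher at the unadjusted p, Pigz stayed at or under 0.692 FPKM in WT. It passed the filter through the 3 Bach2-cKO libraries alone, the group where it is high, so the filter favoured its place in that count. Of all 13766 genes tested, limma-voom called 1170 higher and 1348 lower. There an unadjusted p of 0.032 by limma ranked 3593, so at least 3593 genes, both directions together, lay under 0.05. The median difference of the GPI anchor genes was -0.06, that of the other LY6 and uPAR genes -0.05 and that of all genes -0.02.

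A further list held lymphocyte proteins with a GPI anchor other than the 7 members, with Plaur counted here as well as above. Of its 15 tested genes, 1 was higher and 2 lower by limma, near the 7.02% and 8.31% of all genes, with a median difference of 0.05. At an unadjusted p under 0.05, 2 were higher and 2 lower, and by limma-voom 1 and 2. Sema7a, a semaphorin, rose by 0.89 in log2 units (adjusted p = 0.00579 by limma). Izumo1r, the folate receptor FR4 of Tregs, fell by 0.81 and Prnp, the prion protein, by 0.54. Of 36 tested type I interferon response genes, 4 were higher and 6 lower by limma, with a median of 0.01, where 7.02% and 8.31% of all genes were called. At an unadjusted p under 0.05, 5 were higher and 9 lower, and by limma-voom 4 and 7. For both lists, the settings were also wide over all 13766 genes tested. There limma-voom called 1170 higher and 1348 lower. An unadjusted p of 0.032 by limma ranked 3593, so at least 3593 genes, both directions together, lay under 0.05. The exact share of all genes at that threshold is not given here. Among the interferon genes Ifit1bl1 was the lowest at -2.20. Ifit2, Ifit1 and Usp18, which limits interferon signalling, changed by -0.61, -0.84 and -0.79. These 4 were named for the smallest p, and the 4 interferon genes called higher rose by 0.29 to 0.60.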

How the data were processed

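Poly(A) RNA of 6 libraries, 3 WT and 3 Bach2-cKO, was quantified by the authors, who deposited FPKM per gene and library. The submitters' processing notes name HISAT2 2.0.5, featureCounts 1.5.0-p3 and build mm9. Positions in the table match GENCODE M21 (GRCm38) for 45128 of 49326 genes, all 7 LY6 genes among them, and are given as GRCm38. Annotation and use of strand are not given in the sources used.

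The members and gene lists were chosen with earlier results of these data known. A gene entered the test if 3 or more libraries reached 1 FPKM. The log2(FPKM + 1) values were fitted with limma 3.58.1 (intensity trend, two-sided, Benjamini-Hochberg, threshold 0.05) in R 4.3.3. Single values were tested by exact permutation over libraries. Whole reads were recovered from the FPKM steps (all but 1 of 28530 genes above 0 within 0.001 reads), taking the mean transcript length for 24244 of them, and sum to 99.93% to 99.94% of the recovered totals. The limma fit was tested on simulated data. Alternatives were a pseudocount of 0.1, no filter, median-ratio scaling, limma-voom on recovered reads, the replicate block, a B cell score covariate, Ly6c1 and Ly6c2 summed, leaving out each library and, added after the data were seen, summed reads scaled to the library total and the same omissions for ratios, sums and shares.

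Named were every member, and in each list and among neighbours up to 4 tested genes of smallest p. The 3 genes of at least 5 FPKM most like a member were named too, with the 2 most abundant markers of a list. Of these markers, Cd68 of monocytes and Col1a1 of stroma were not called and are named only here. The NK cell list summed to 13.3 to 19.9 FPKM in WT and 19.6 to 40.2 in Bach2-cKO libraries. Its Klrb1b was not called, and Ncr1 was not tested, at 0.326 ± 0.156 FPKM in WT and 1.035 ± 0.184 in Bach2-cKO libraries. The dendritic cell list summed to 21.2 to 25.8 against 16.8 to 21.5 FPKM. Its Zbtb46 was not called, and Flt3 fell from 10.7 ± 1.60 to 6.11 ± 1.49 FPKM (adjusted p = 0.0266 by limma). Csf1r, Cd14, Adgre1, Ly6g, Cdh5, Kdr, Bach2, Cd4 and Foxp3 were added after their values were seen. Sequences were aligned with Biopython and figures drawn with Matplotlib 3.10.9 under Python 3.11.15.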

Additional observations from a re-analysis of the deposited data

How the results depend on the processing

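Ly6c1 kept its fall in the 12 alternatives that hold it as a gene of its own, with log2 differences from -2.999 to -2.61, and Ly6a stayed higher, from 0.88 to 1.34, losing its call with the B cell score. The count of LY6 genes called higher was 1, with 2 under limma-voom and under the replicate block, 0 with the B cell score, and 1 to 2 when leaving out each library. The labels give replicate numbers but do not say whether they pair the samples. Deviations of same-numbered libraries correlated at -0.05, 0.01 and -0.22, which with 3 libraries per group cannot decide it. Under the block 625 genes were higher and 657 lower.

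Ly6d was -0.41 with the B cell score, and Ly6e was 0.0046 with median-ratio scaling. Leaving out 1 library, Ly6e ranged from -0.094 to 0.045, and Ly6k was not tested without WT replicate 3 or Bach2-cKO replicates 1 or 2. Among ratios, leaving out 1 library gave -0.0042 to 0.49 for Ly6a to Ly6c2, -0.32 to 0.14 for Ly6d to Ly6i, -0.60 to 0.24 for Ly6d to Ly6k and -0.32 to 0.29 for Ly6i to Ly6k, which was -0.031 with a pseudocount of 0.1. The cause was not tested. Depth limits Ly6i and Ly6k, with 23 to 54 and 3 to 45 reads per library.

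Counts of called list genes moved, and so did those of all genes, from 967 higher and 1144 lower in the main fit. Over all genes limma-voom called 1170 and 1348, and the replicate block 625 and 657. With no filter it was 501 and 681 of 28530, and with the B cell score 42 and 54. Leaving out 1 library gave 485 to 1200 higher and 511 to 1378 lower, the most without Bach2-cKO replicate 3. For GPI anchor synthesis, 2 were higher under limma-voom and 0 lower with no filter, with the replicate block and with the B cell score, and leaving out 1 library gave 0 to 2 higher and 0 to 3 lower. For other GPI-anchored proteins, 0 were higher and 0 lower with the B cell score, 1 lower with no filter and with the block, and 1 to 3 lower without 1 library. For other LY6 and uPAR genes, 0 were lower with the block and the B cell score, and 0 to 1 without 1 library. For interferon genes, 2 were higher with no filter and with the block, 0 higher and 0 lower with the B cell score, and 1 to 2 higher and 5 to 10 lower without 1 library. For neighbours, 0 were lower with no filter, with the block and with the B cell score, and 0 to 1 without 1 library.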
